A study of Mus musculus with 12 samples.

Results

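The interleukin-1 family and inflammasome genes described here were 7 members, the agonists Il1a and Il1b, the antagonist Il1rn, the receptors Il1r1 and Il1r2, the protease Casp1 and the sensor Nlrp3. They were chosen by probe name, and all 7 were found among the 750 genes of a mouse immune panel (NanoString nCounter, which counts bar-coded probes bound to single RNA molecules without amplification). All 7 were also among the 729 genes tested. Their counts were followed tumor by tumor in 12 B16F10 tumors, a mouse melanoma line grown in the right flank of C57BL/6 mice, 3 tumors in each of 4 groups. Each tumor came from a separate mouse, per the labels, and neither age nor sex of the mice is given in the sources used here.

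Treatment began 6 days after the cells were implanted and was injected into the tumor. The saline group received saline and was collected 2 days later. The early single-dose group received interleukin-2 and interleukin-12, each as a collagen-binding fusion protein, and was collected 2 days later. The late single-dose group received the same cytokines in 1 dose and was collected 8 days later. The repeat-dose group was injected again 6 days after its first dose and collected 2 days later, at day 8. Saline tumors at day 8 were not analysed here, so for both day-8 groups treatment and tumor age cannot be told apart in the comparison with saline. The 3 comparisons with saline also share the same 3 saline tumors.

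Interleukin-1 alpha and interleukin-1 beta are early signals of inflammation that bind the same receptor, Il1r1, and switch on NF-kappaB through the adaptor Myd88. The receptor antagonist Il1rn occupies Il1r1 without signaling, and the decoy Il1r2 binds the agonists without passing a signal on. Interleukin-1 beta is made as an inactive precursor that Casp1 cleaves inside the inflammasome, which the sensor Nlrp3 assembles, so an RNA count does not tell how much active protein was present.

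The members lie on 4 chromosomes of GRCm38.p6, per RefSeq. On chromosome 2 are Il1a (chr2:129299609-129310186), Il1b (chr2:129364569-129371164) and Il1rn (chr2:24336860-24351491). On chromosome 1 are Il1r1 (chr1:40222480-40316201) and Il1r2 (chr1:40084692-40125230). Casp1 is at chr9:5298517-5307281 and Nlrp3 at chr11:59541569-59566955. The start sites of the agonists and of the antagonist are shown because the later comparison sets these transcripts against each other. Each run is the RefSeq promoter window of GRCm38.p6, 250 bases before to 50 after the start, read 5′ to 3′ along the gene's strand. Capitals mark a TATAAA box or an AP-1 match (TGANTCA).
Il1a, minus strand, chr2:129309923-129310222: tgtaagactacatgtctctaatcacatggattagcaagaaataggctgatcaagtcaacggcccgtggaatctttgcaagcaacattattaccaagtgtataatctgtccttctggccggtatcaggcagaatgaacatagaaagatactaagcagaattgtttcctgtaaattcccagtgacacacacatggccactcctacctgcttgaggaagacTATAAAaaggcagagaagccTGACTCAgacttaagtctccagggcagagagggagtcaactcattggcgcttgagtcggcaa
Il1b, minus strand, chr2:129371090-129371389: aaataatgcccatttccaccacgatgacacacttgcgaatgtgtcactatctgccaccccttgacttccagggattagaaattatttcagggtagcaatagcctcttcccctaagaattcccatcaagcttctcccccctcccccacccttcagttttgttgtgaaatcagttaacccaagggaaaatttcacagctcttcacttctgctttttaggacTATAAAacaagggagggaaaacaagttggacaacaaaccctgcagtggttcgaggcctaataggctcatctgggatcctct
Il1rn, plus strand, outermost start, chr2:24336610-24336909: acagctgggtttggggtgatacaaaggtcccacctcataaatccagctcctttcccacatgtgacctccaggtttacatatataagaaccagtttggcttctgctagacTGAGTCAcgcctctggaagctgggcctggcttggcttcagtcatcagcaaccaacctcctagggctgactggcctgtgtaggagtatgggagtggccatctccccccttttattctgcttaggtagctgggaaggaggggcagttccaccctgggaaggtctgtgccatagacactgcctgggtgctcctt

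In Il1a the TATAAA began 32 bases before the start and TGACTCA began 12 bases before it. In Il1b TATAAA began 31 bases before the start, and no AP-1 letters were in the window. In Il1rn TGAGTCA began 141 bases before the outermost start, and that window held no TATAAA. On either strand, 13.6% of 32851 promoter windows held TATAAA and 7.81% held the AP-1 letters. Of the other members, Nlrp3 had a match to the kappaB motif 186 bases before 1 of its starts, and Il1r1 had one 232 bases before 1 of its starts (8.46% of windows have one). Il1r2 had the letters TTCNNNGAA, the interferon-gamma activated sequence, 111 bases before its start (8.30% of windows). The single window of Casp1 held none of the 5 motifs searched, the fifth being GAAANNGAA, the core of the interferon-stimulated response element (8.56% of windows). These are letter matches in a window and were not tested for binding.

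Before the members, the scale they are read on matters. Counts were divided by each tumor's geometric mean of 20 housekeeping probes, taken relative to all tumors, and the result is called the scaled count. That housekeeping mean was 2309 to 3034 raw counts in saline and 530 to 1168 in repeat-dose tumors, and on this scale the median of all 729 genes was higher than in saline by 0.56 (log2) in early single-dose, 0.78 in late single-dose tumors and 1.19 in repeat-dose tumors. Changes of members that passed against saline are therefore also given relative to that median. Repeat-dose replicate C stood apart in depth, with 392596 panel counts against 612037 to 1232726 in the other 11 tumors. Pigment-cell genes that define melanoma were not used here; of 9 listed melanoma markers only S100b and Mcam were on the panel. A probe's count also depends on how well it binds, so levels of different genes are not compared.

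Both agonists passed the test in repeat-dose tumors against saline, and neither passed in early single-dose tumors. Il1b, the agonist that needs cleavage, had scaled counts of 134, 54.3 and 79.3 in saline replicates A, B and C, and of 99.0, 53.5 and 64.7 in early single-dose tumors. These groups overlapped. It was at 227, 204 and 414 in late single-dose tumors and at 834, 133 and 835 in repeat-dose tumors. Every late single-dose tumor lay above every saline tumor, whereas repeat-dose replicate B, at 133, lay level with saline replicate A. Against saline Il1b rose by 2.75 ± 0.64 (log2 fold change ± SE; relative to all genes 1.56) in repeat-dose tumors (edgeR adjusted p = 0.00405). The value was 1.66 ± 0.62 (relative 0.88) in late single-dose tumors, which did not pass the threshold of 0.05 (adjusted p = 0.0556), and -0.30 ± 0.62 in early single-dose tumors (adjusted p = 0.791). The late single-dose value passed in 6 of the alternatives and left-out tumors tried, among them DESeq2 on housekeeping size factors (adjusted p = 0.0151) and the replicate block (edgeR adjusted p = 0.0286). The repeat-dose call was lost with total-count scaling, at 1.17 (edgeR adjusted p = 0.0799), and positive-control scaling, at 1.13 (adjusted p = 0.0935). Without repeat-dose replicate B the repeat-dose value was 3.23 (edgeR adjusted p = 0.002).

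**Figure D1:**
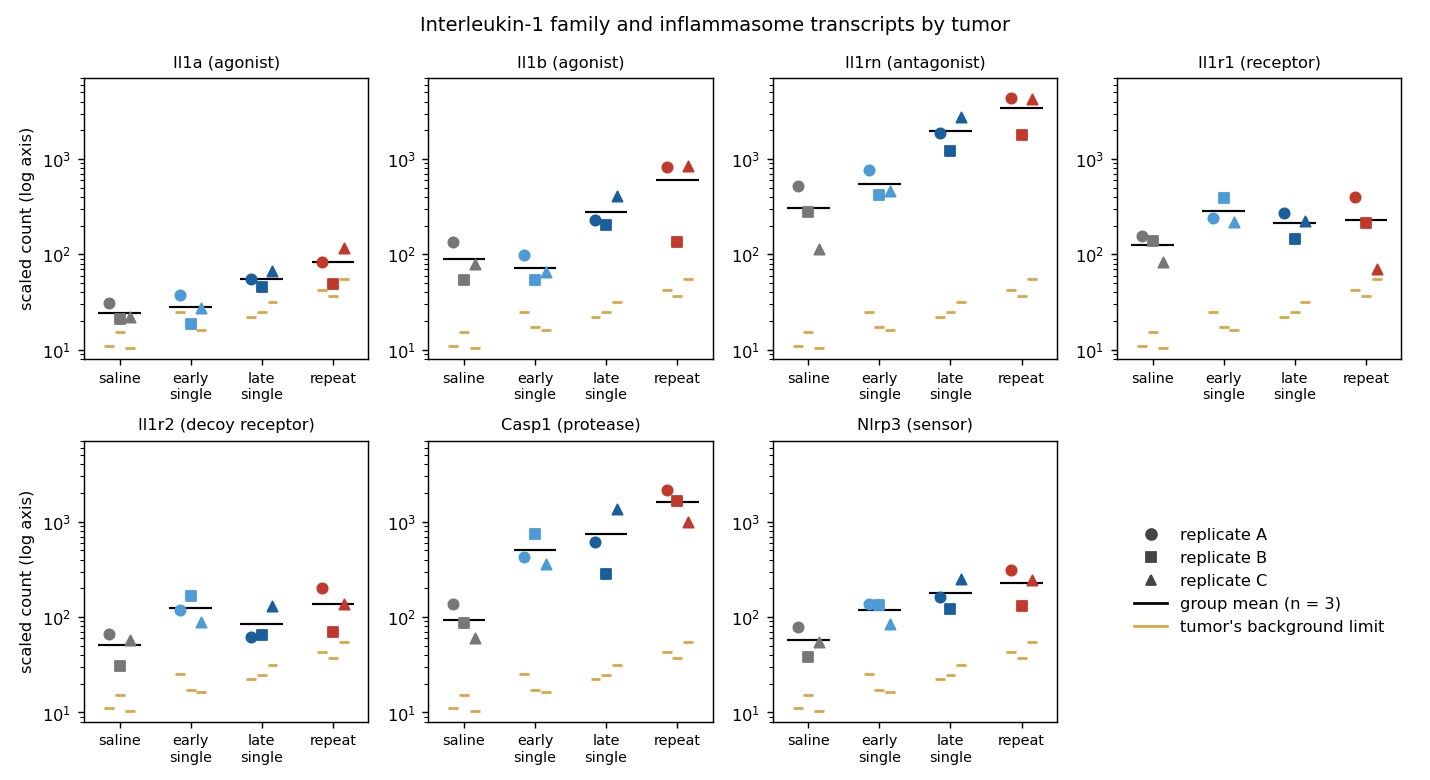
Scaled counts (log axis) of the 7 members in each of 12 tumors, with 1 panel per gene, 1 symbol per tumor, a bar for the mean of 3 tumors and a short line for each tumor's background limit. Il1rn and Casp1 climb furthest above their saline tumors, Il1a lies close to its background limits throughout, and Il1b is low in repeat-dose replicate B.

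Il1a, the agonist that is active without cleavage, was the weakest signal of the 7 against its background. Its raw counts were 23 to 58, which is 1.08 to 2.77 times the tumor's background limit (the mean plus 2 SD of 8 negative probes). Scaled counts were 30.7, 21.2 and 21.9 in saline and 37.1, 18.7 and 27.7 in early single-dose tumors, which overlapped. They were 54.6, 45.9 and 67.2 in late single-dose tumors and 83.1, 48.8 and 116 in repeat-dose tumors, and every day-8 tumor lay above every saline and early single-dose tumor. The scaled background limit was also higher there, at 37.1 to 54.9 in repeat-dose and 22.3 to 31.8 in late single-dose against 10.5 to 15.4 in saline tumors. Il1a passed the test in late single-dose tumors at 1.18 ± 0.37 (relative 0.40, edgeR adjusted p = 0.0291) and in repeat-dose tumors at 1.73 ± 0.38 (relative 0.54, adjusted p = 0.00293). Both calls depended on the scaling: with TMM they were 0.42 (edgeR adjusted p = 0.344) and 0.52 (adjusted p = 0.201). With the negative mean subtracted the late single-dose value was 1.16 (edgeR adjusted p = 0.118). In early single-dose tumors it was 0.17 ± 0.38 (adjusted p = 0.817), a direction that turned under TMM, total-count and positive-control scaling.

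The antagonist had larger log2 fold changes against saline than either agonist in all 3 treated groups, on the housekeeping scale. Whether it differed from the agonists in a given treated group was not tested. Il1rn was at 524, 277 and 113 in saline and 761, 419 and 468 in early single-dose tumors. It was at 1890.4, 1205 and 2784 in late single-dose tumors and at 4361, 1802 and 4246 in repeat-dose tumors. The early single-dose tumors overlapped saline replicate A, and the 6 day-8 tumors all lay above the 6 others. Il1rn rose by 2.68 ± 0.58 (relative 1.90, edgeR adjusted p = 0.0081) in late single-dose and by 3.51 ± 0.60 (relative 2.32, adjusted p = 0.00107), an 11.4-fold change, in repeat-dose tumors. The early single-dose value was 0.85 ± 0.55 (edgeR adjusted p = 0.285). In repeat-dose tumors the call was kept under every scaling, tool, filter and left-out tumor tried, with adjusted p no higher than 0.00921.

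Il1r1, the signaling receptor, was 156, 138 and 83.9 in saline, 241, 394 and 221 in early single-dose, 273, 144 and 222 in late single-dose tumors and 402, 215 and 69.8 in repeat-dose tumors. Only the early single-dose tumors were all above saline, and the repeat-dose tumors spread over more than the range of saline. None of its differences passed, the values against saline being 1.18 ± 0.53 (edgeR adjusted p = 0.113), 0.76 ± 0.53 (adjusted p = 0.281) and 0.88 ± 0.53 (adjusted p = 0.177) in the same order. Both day-8 values turned negative under TMM and total-count scaling. Without repeat-dose replicate C, whose 24 raw counts were 1.27 times its background limit, the repeat-dose value was 1.29 (edgeR adjusted p = 0.0235). The summed scaled count of 6 fibroblast markers was lowest in saline replicate C (2598) and repeat-dose replicate C (4781), the same tumors in which Il1r1 was lowest, against 10061 to 26505 in the others. Col1a1, Col3a1 and Fn1 made up most of these sums. The markers did not all follow: in repeat-dose replicate C, Thy1 (928) lay above all saline tumors (430, 380 and 174) and Fn1 (2776) above saline replicate B (2288). Col1a1 (588), Col3a1 (410), Pdgfrb (52.4) and Fap (26.2) were low there, Pdgfrb and Fap below its scaled background limit of 54.9. The part of fibroblasts in the Il1r1 values was not tested, and in bulk tumors fewer cells of a type and less RNA per cell cannot be told apart.

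Il1r2, the decoy, was 66.8, 30.9 and 56.9 in saline and 120.0, 165 and 89.3 in early single-dose tumors, with no overlap. It was 62.1, 64.9 and 129 in late single-dose tumors, level with saline in 2 of 3, and 201, 70.0 and 137 in repeat-dose tumors. It passed in repeat-dose tumors at 1.40 ± 0.47 (relative 0.21, edgeR adjusted p = 0.0228). That direction turned with total-count scaling (-0.25) and positive-control scaling (-0.11), and without saline replicate B or repeat-dose replicate A the edgeR adjusted p was 0.0855 and 0.119. The call was also lost with TMM, at 0.16 (edgeR adjusted p = 0.673), and with DESeq2 on its own size factors, at 0.15 (adjusted p = 0.723). With steadier-housekeeping scaling and with the negative mean subtracted the edgeR adjusted p was 0.0622 and 0.0707. Raw counts of Il1r2 were as low as 1.89 times the background limit, in repeat-dose replicate B. The early single-dose value was 1.27 ± 0.46 (edgeR adjusted p = 0.0582) and the late single-dose value 0.72 ± 0.46 (adjusted p = 0.243), the second of which turned negative under TMM, total-count and positive-control scaling.

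Within a tumor the ratio of 2 probes does not depend on how the tumor was scaled, so agonist was set against antagonist and decoy directly, as the log2 ratio of raw counts plus 1. Its level reflects both probes and is not a ratio of molecules, so only differences between groups are read. Il1a over Il1rn was -4.06, -3.68 and -2.35 in saline, -4.31, -4.43 and -4.04 in early single-dose, -5.09, -4.68 and -5.35 in late single-dose and -5.69, -5.17 and -5.15 in repeat-dose tumors. All day-8 tumors lay below all others, and the group means were 1.68 below saline in late single-dose (difference -1.68) and 1.97 below in repeat-dose tumors (difference -1.97). An exact permutation test of all 369600 assignments of 12 tumors to 4 groups gave p = 0.000649 (Benjamini-Hochberg over 4 ratios, 0.0026). With the mean of the negative probes subtracted first, the exact p was 0.0013.

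Il1b over Il1rn was -1.97, -2.34 and -0.51 in saline, -2.93, -2.95 and -2.84 in early single-dose, -3.05, -2.56 and -2.74 in late single-dose and -2.38, -3.74 and -2.34 in repeat-dose tumors. Saline replicate C stood high, and repeat-dose replicates A and C lay level with saline replicate B. The exact permutation p was 0.0645 (adjusted 0.0645), which did not pass, and it was 0.381 without saline replicate C and 0.0223 without repeat-dose replicate B.

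The decoy gave another order of groups. Il1b over Il1r2 was 0.99, 0.80 and 0.47 in saline and -0.27, -1.61 and -0.46 in early single-dose tumors, all of them below saline. It was 1.85, 1.64 and 1.67 in late single-dose tumors, all above saline, and 2.04, 0.92 and 2.59 in repeat-dose tumors (exact permutation p = 0.00208, adjusted 0.00416). Il1a over Il1r2 was likewise lowest in early single-dose tumors, at -1.66, -3.09 and -1.66 against -1.10, -0.53 and -1.36 in saline. It was -0.18, -0.49 and -0.93 in late single-dose and -1.26, -0.51 and -0.23 in repeat-dose tumors (exact permutation p = 0.0139, adjusted 0.0185). Without early single-dose replicate B that exact p was 0.0951. The tests ask whether any of the 4 groups differ, and pairs of groups were not tested.

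**Figure D2:**
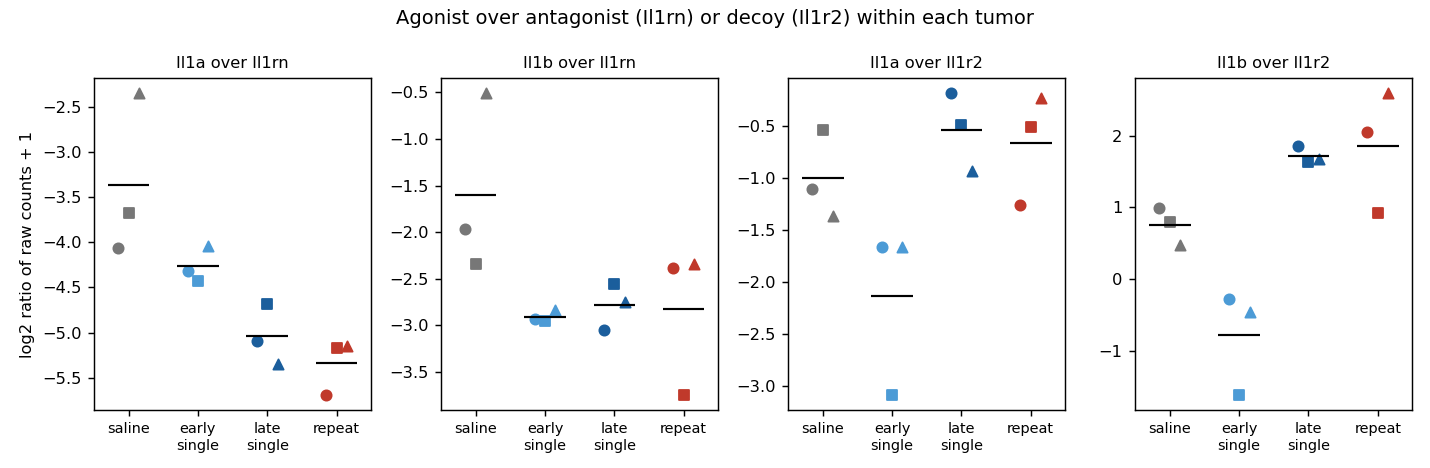
Log2 ratio of raw counts plus 1 of each agonist over the antagonist Il1rn or the decoy Il1r2, 1 symbol per tumor (circle A, square B, triangle C) and a bar for the mean of 3 tumors; each panel has its own y range. Il1a over Il1rn is lowest in the 6 day-8 tumors, and both ratios over Il1r2 are lowest in the 3 early single-dose tumors.

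Casp1, the inflammasome protease, had the largest log2 fold change of the 7 members in each comparison with saline, on the housekeeping scale. It was 136, 85.7 and 60.5 in saline, 423, 739 and 364 in early single-dose, 608, 283 and 1352 in late single-dose tumors and 2130.05, 1666 and 986 in repeat-dose tumors. All 9 treated tumors lay above all saline tumors, and all repeat-dose tumors above all early single-dose tumors. The rise was 2.43 ± 0.57 (relative 1.88, edgeR adjusted p = 0.0112) in early single-dose, 2.99 ± 0.58 (relative 2.21, adjusted p = 0.007) in late single-dose and 4.08 ± 0.61 (relative 2.89, adjusted p = 0.00077) in repeat-dose tumors, the last a 17.0-fold change. Without saline replicate B or C the early single-dose edgeR adjusted p was 0.0557 and 0.0501, at 2.37 and 2.20.

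Nlrp3, the sensor, was 79.5, 38.3 and 54.9 in saline, 137, 135 and 84.0 in early single-dose, 162, 122 and 249.6 in late single-dose tumors and 313, 129 and 244 in repeat-dose tumors. The 9 treated tumors lay above all saline tumors and overlapped among themselves. It rose by 1.63 ± 0.42 (relative 0.84, edgeR adjusted p = 0.0158) in late single-dose and by 1.99 ± 0.42 (relative 0.80, adjusted p = 0.00247) in repeat-dose tumors. The early single-dose value was 1.05 ± 0.41 (edgeR adjusted p = 0.0758). With total-count and positive-control scaling both day-8 calls were lost, at 0.60 and 0.81 in late single-dose tumors and 0.37 and 0.49 in repeat-dose tumors.

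**Figure D3:**
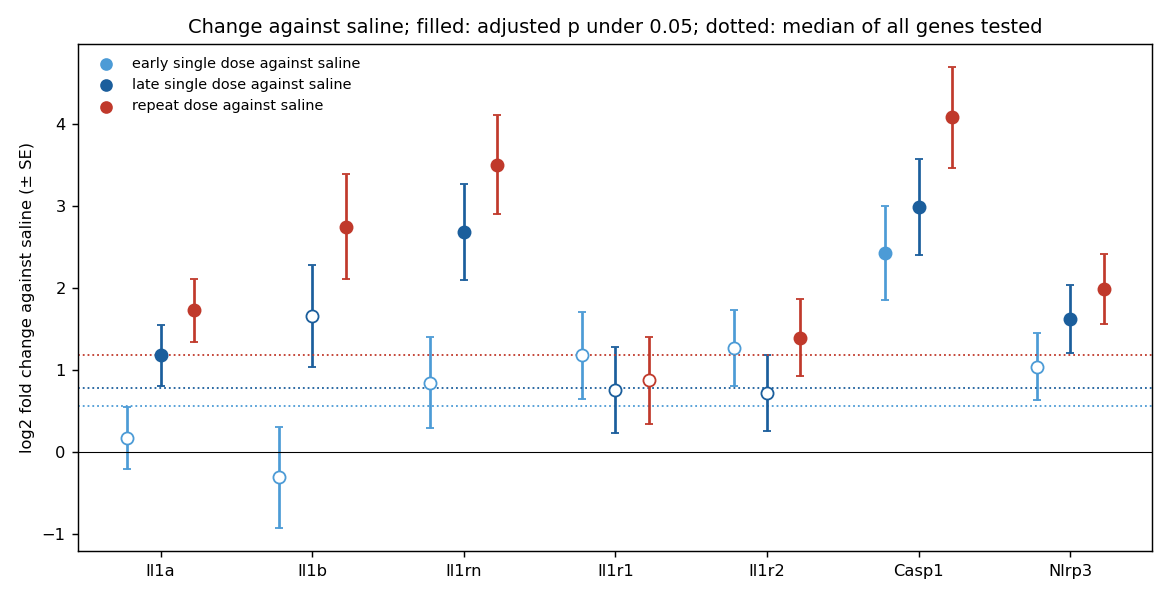
Log2 fold change against saline (± SE, 3 tumors against 3) of each member in early single-dose, late single-dose and repeat-dose tumors, filled where the edgeR adjusted p was under 0.05; dotted lines mark the median of all 729 genes in each comparison. Casp1 lies above these medians in all 3 comparisons and Il1rn furthest above them after it in day-8 tumors, while Il1r1 is open throughout.

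Counted together, 1 of 7 members (Casp1) passed in early single-dose tumors against saline, beside 31.1% of all genes tested. In late single-dose tumors 4 of 7 passed beside 39.2%, and in repeat-dose tumors 6 of 7 beside 61.3%. Every one of these calls was a rise. The median log2 fold change of the members was 1.05, 1.63 and 1.99 in these comparisons against 0.56, 0.78 and 1.19 over all genes. When any difference between groups was tested jointly, 5 of 7 passed, all but Il1r1 and Il1r2, beside 48.8% of all genes.

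Between treated groups no member passed the edgeR test. Late single-dose against early single-dose tumors gave 0% of all genes called, with Il1b at 1.96 ± 0.63 (edgeR adjusted p = 0.277) and Il1rn at 1.84 ± 0.56 (adjusted p = 0.276), and 3 of 7 members at an unadjusted p under 0.05. DESeq2 called Il1b and Il1rn there with either set of size factors. Repeat-dose against late single-dose tumors, the groups of equal age, also gave 0% of genes called and 0 members at an unadjusted p under 0.05, with Casp1 at 1.09 ± 0.55 (edgeR adjusted p = 0.425). Without late single-dose replicate C the value of Casp1 there was 1.84 (edgeR adjusted p = 0.046). Leaving out that tumor also had 100 of 729 genes called, with the median of all genes at 0.71 against 0.41 with all tumors.

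Repeat-dose against early single-dose tumors, both collected 2 days after a dose, gave 0% of genes called and 5 of 7 members at an unadjusted p under 0.05. Il1b was at 3.05 ± 0.66 and Il1rn at 2.66 ± 0.58 (both edgeR adjusted p = 0.0619), and Il1a at 1.56 ± 0.38 (adjusted p = 0.0751). The difference of repeat-dose from late single-dose tumors, less that of early single-dose from saline tumors, gave 0% of genes called and 0 members at an unadjusted p under 0.05, with Casp1 at -1.34 ± 0.77 (edgeR adjusted p = 0.637) and Il1b at 1.39 ± 0.87 (adjusted p = 0.673). Over all genes the unadjusted p was under 0.05 for 57, 77, 176 and 79 genes in these 4 comparisons. DESeq2 called 57, 10, 57 and 37 genes with its own size factors and 24, 3, 79 and 18 with those of the housekeeping probes. The authors' values tested with limma gave 0, 0, 6 and 0 genes.

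The rest of the pathway was read from lists. Of 30 other family members and signaling genes, 9 rose in early single-dose, 11 in late single-dose tumors and 18 in repeat-dose tumors, and none fell, counts near the shares of all genes called (31.1%, 39.2% and 61.3%). Their median log2 fold changes were 0.37, 0.48 and 0.79, below the 0.56, 0.78 and 1.19 of all genes. Il1rap, the accessory chain that Il1r1 needs to signal, passed in early single-dose tumors at 0.60 ± 0.19 (relative 0.04, edgeR adjusted p = 0.0371), a change near the median of all genes. Its value was 0.30 ± 0.19 in late single-dose (relative -0.48, adjusted p = 0.25) and 0.38 ± 0.19 in repeat-dose tumors (relative -0.81, adjusted p = 0.113). Myd88, the shared adaptor, was 236, 197 and 180.4 in saline, 426, 590.5 and 484 in early single-dose, 462, 299 and 684 in late single-dose tumors and 987, 748 and 748 in repeat-dose tumors. It rose by 1.29 ± 0.29 in early single-dose (edgeR adjusted p = 0.00866), by 1.23 ± 0.29 in late single-dose (adjusted p = 0.0106) and by 2.02 ± 0.29 in repeat-dose tumors (adjusted p = 0.00077). Nfkbia, the NF-kappaB inhibitor that is itself an NF-kappaB target, rose by 1.64 ± 0.39, 1.72 ± 0.40 and 2.43 ± 0.40 in the same order (edgeR adjusted p = 0.0121, 0.0103 and 0.000956). Irak2, a kinase of the signaling complex, rose in all 3 comparisons with saline, by 2.06 ± 0.39 in repeat-dose tumors (edgeR adjusted p = 0.00156). Irak1, another such kinase, was at 0.11 ± 0.15 there (adjusted p = 0.56), and Sigirr, an inhibitory receptor of the family, at -0.03 ± 0.17 (adjusted p = 0.905).

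Among sister cytokines and receptors, Il1rl1, the receptor of interleukin-33, was 89.5, 40.6 and 42.2 in saline, 563, 344 and 156 in early single-dose, 179.8, 117 and 462 in late single-dose tumors and 1308, 609 and 131 in repeat-dose tumors. All treated tumors were above saline, and repeat-dose replicate C was lowest of its group. It rose by 2.62 ± 0.82 in early single-dose (edgeR adjusted p = 0.0361) and by 3.58 ± 0.86 in repeat-dose tumors (adjusted p = 0.00448). The late single-dose value, 2.14 ± 0.81, did not pass (edgeR adjusted p = 0.0583). Il18, which like interleukin-1 beta is cleaved by Casp1, rose by 1.41 ± 0.43 (edgeR adjusted p = 0.033) in early single-dose, by 1.41 ± 0.43 (adjusted p = 0.0266) in late single-dose and by 2.03 ± 0.44 (adjusted p = 0.00274) in repeat-dose tumors. Its receptor chain Il18rap rose by 1.73 ± 0.36, 1.93 ± 0.36 and 2.58 ± 0.37 (edgeR adjusted p = 0.00664, 0.0069 and 0.00077).

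Of 7 other inflammasome and related genes, 3 rose in early single-dose, 2 in late single-dose tumors and 6 in repeat-dose tumors. Over all genes 31.1%, 39.2% and 61.3% were called. The medians of the list were 0.56, 0.76 and 1.35 against 0.56, 0.78 and 1.19 over all genes. Nod1, a cytosolic sensor of bacterial wall fragments, rose the most, by 2.64 ± 0.42 (edgeR adjusted p = 0.00316) in early single-dose, 2.25 ± 0.41 (adjusted p = 0.0069) in late single-dose and 3.19 ± 0.43 (adjusted p = 0.00077) in repeat-dose tumors. Mefv, which encodes the sensor pyrin, was at 0.30 ± 0.48 in early single-dose tumors (edgeR adjusted p = 0.72). It rose by 1.66 ± 0.49 in late single-dose (edgeR adjusted p = 0.0226) and by 1.91 ± 0.49 in repeat-dose tumors (adjusted p = 0.00636). Pycard, the adaptor that links Nlrp3 to Casp1, passed in none of them, with 0.69 ± 0.28 in repeat-dose tumors (edgeR adjusted p = 0.0551).

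Genes known to be induced by interleukin-1, most of which also answer other inflammatory signals, rose in 5, 9 and 14 of 21 cases in early single-dose, late single-dose and repeat-dose tumors, and none fell. Over all genes 31.1%, 39.2% and 61.3% were called, so the counts lie near those shares. Their median log2 fold changes were 1.19, 1.73 and 2.44, beside 0.56, 0.78 and 1.19 over all genes. Nos2, which makes nitric oxide, was 56.1, 22.3 and 27.4 in saline, 314, 197 and 182 in early single-dose, 399, 169.7 and 1254 in late single-dose tumors and 1994, 781 and 1362 in repeat-dose tumors. It rose by 5.29 ± 0.77 in repeat-dose tumors (edgeR adjusted p = 0.00077). Lcn2, an iron-binding defense protein, was 84.8, 61.7 and 49.8 in saline, 1143, 2742 and 989.8 in early single-dose, 707, 199 and 198 in late single-dose tumors and 1417, 1604 and 151 in repeat-dose tumors. It was thus highest in an early single-dose tumor, with log2 fold changes of 4.63 ± 0.90 (edgeR adjusted p = 0.00504) and 4.02 ± 0.87 (adjusted p = 0.00279) in early single-dose and repeat-dose tumors. The adhesion molecules Icam1 and Vcam1 rose in all 3 comparisons, by 3.08 ± 0.48 (edgeR adjusted p = 0.000815) and 2.50 ± 0.43 (adjusted p = 0.00109) in repeat-dose tumors. Il6 did not pass in any, with 1.12 ± 0.45 in repeat-dose tumors (adjusted p = 0.0511).

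**Figure D4:**
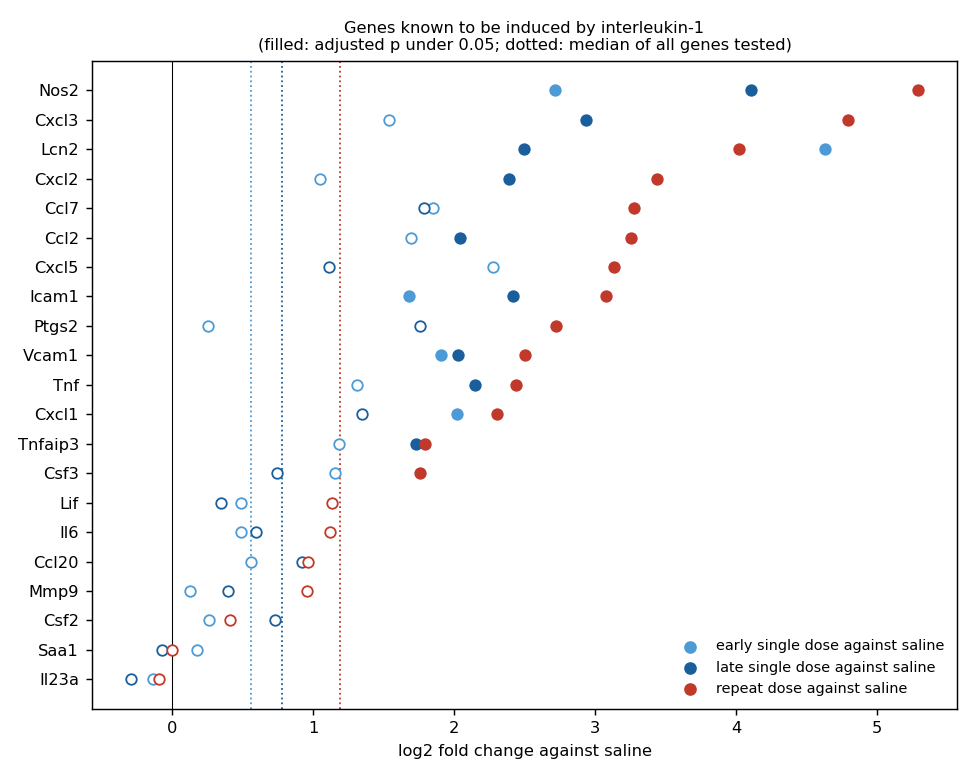
Log2 fold change against saline of 21 genes known to be induced by interleukin-1, in early single-dose, late single-dose and repeat-dose tumors (3 tumors against 3), filled where the edgeR adjusted p was under 0.05, with dotted lines at the median of all genes tested. Nos2 and Lcn2 reach 5.29 and 4.63, and Il23a and Saa1 stay near 0.

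The lists of leukocyte markers did not all rise alike. The summed scaled count of 11 monocyte and macrophage markers was 1208 to 4778 in saline, 6346 to 12686 in early single-dose, 6885 to 17946 in late single-dose and 11893 to 38121 in repeat-dose tumors, and 4, 9 and 11 of the 11 rose in the 3 comparisons with saline, beside 31.1%, 39.2% and 61.3% of all genes called in either direction. That of 8 neutrophil markers was 383, 224 and 368 in saline, 694, 504 and 346 in early single-dose, 709, 763 and 1531 in late single-dose tumors and 3347, 667 and 2881 in repeat-dose tumors, low in repeat-dose replicate B as Il1b was. S100a8 alone made up 2563, 343 and 2325 of the repeat-dose sums. Only 6, 3 and 5 of the 8 markers were above background in those tumors. Of 7 neutrophil markers tested, 0, 2 and 2 rose, S100a8 and Csf3r in both day-8 groups. In the same order 0, 4 and 4 of 5 T cell markers rose, and 0, 1 and 2 of 4 dendritic cell markers. For mast cells it was 2, 1 and 1 of 3, and none of 4 B cell markers passed in any of these comparisons. Ptprc, carried by all leukocytes, was 304, 157 and 32.5 in saline and 1787, 1179 and 794 in repeat-dose tumors. The part of these cells in the members' values was not tested.

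Over the 12 tumors, on a log2 scale with each tumor's median of tested genes taken off, the pattern most like that of each member was found among 599 genes by Pearson's r, as a description only, since all points share the 4 groups and each tumor's depth. For Il1b it was Cd86 (r = 0.954) and Cd14 (0.934), both carried by myeloid cells. For Il1a it was Ppbp (0.910), a chemokine of platelets, then Cd40lg (0.853), carried by activated T cells, and Cxcr2 (0.849), a chemokine receptor of neutrophils. Il1a lay near background throughout. Cxcr2 was below the scaled background limit in early single-dose replicate B (14.6 against 17.3) and repeat-dose replicate B (25.1 against 37.1). The part of background in these r values was not tested. For Il1rn it was Cxcl16 (0.924), for Casp1 Bst1 (0.989), for Nlrp3 Hcst (0.930), for Il1r2 Runx3 (0.851) and for Il1r1 the collagen gene Col3a1 (0.897). Taken as deviations from the group means, r was 0.940 for Il1b with Cd86, 0.927 for Casp1 with Bst1 and 0.895 for Il1r1 with Col3a1, against 0.622 for Il1rn with Cxcl16. Among pairs of members the highest r was that of Il1a with Il1b (0.843) and the lowest that of Il1rn with Il1r1 (-0.712). Taken as deviations from the group means these were 0.738 and -0.445.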

How the data were processed

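RNA from formalin-fixed, paraffin-embedded tumors was measured on the nCounter mouse PanCancer Immune panel, with 750 gene, 20 housekeeping, 6 positive and 8 negative probes. Raw, unscaled counts per probe were deposited for each sample, per the file headers. The series table held signal normalized by the authors (nSolver, per the labels; version not given in the sources used); a single factor per sample turned raw gene counts of 100 or more into these values to within 0.00882%.

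Members, lists and alternatives were chosen with earlier results of these data known. All members and the listed pathway genes may be named. Samples were grouped by their labels. The design text once puts n = 4 beside the repeat-dose cohort; 3 tumors were analysed. The chi-square per degree of freedom between replicates was 24.2 to 154, above sampling noise. That does not by itself show separate mice, which rests on the labels. Each tumor counted as 1 sample.

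To obtain scaled counts, raw counts were divided by the tumor's geometric mean of housekeeping probes relative to that of all tumors. Genes above the background limit (mean plus 2 SD of the negative probes) in at least 3 tumors were tested, 729 in all. Tests used edgeR 4.0.16 (quasi-likelihood, robust) in R 4.3.3 on raw counts of all 12 tumors in a single 4-group fit, with the housekeeping mean setting library sizes, and Benjamini-Hochberg adjustment over the 729 genes. The edgeR fit was also run on simulated counts with planted rises and falls. Those counts lacked the shift of all genes seen here, so they do not test the scaling. Ratios were tested by exact permutation, two-sided, with a pseudocount of 1. Total panel counts were 392596 to 1232726 per tumor, and low counts such as those of Il1a limit precision.

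Alternatives were TMM, total-count, positive-control and steadier-housekeeping scaling (the steadiest 10 probes), DESeq2 1.42.0 with its own or housekeeping size factors, limma 3.58.1 on the authors' values, no filter, a filter in all samples (562 genes), a block for the replicate letter, a fit of only the groups compared, and leaving out each tumor. Subtraction of the negative mean was added after the data were seen, because Il1a lay near background. Positions, gene names and promoter windows are from RefSeq (GRCm38.p6), which held 11 windows for the 7 members.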

Additional observations from a re-analysis of the deposited data

How the results depend on the processing

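The number of members past the threshold, in edgeR unless another tool is named, changed as follows. In early single-dose tumors against saline it was 1, and 3 with DESeq2 on housekeeping size factors or with only the groups compared, 2 with a filter in all samples and 2 with the replicate block. Over all genes 227 of 729 were called, and in the same order 284, 255, 224 (of 562) and 226. The number of members ranged from 0 (without saline replicate B or C, with 89 and 107 genes called) to 2 when each tumor was left out. In late single-dose tumors 4 members passed, and 2 with total-count or positive-control scaling. Over all genes 286 of 729 were called, and 250 and 39 with these scalings. With only the groups compared 0 members and 0 of 729 genes passed, and Casp1, Il1rn, Nlrp3 and Il1a each had an edgeR adjusted p of 0.0576. Leaving out tumors gave 2 (without saline replicate B or C or late single-dose replicate C, with 86, 108 and 107 genes called) to 5 members. In repeat-dose tumors 6 members passed, and 2 with total-count or positive-control scaling, those kept being Casp1 and Il1rn. Over all genes 447 of 729 were called, and 409 and 272 with these scalings. Leaving out tumors gave 5 to 7 members. In the joint test 5 members passed, and 3 with total-count and 2 with positive-control scaling, with 4 to 6 on leaving out tumors. Over all genes the joint test called 356 of 729, and 337 and 108 with these scalings.

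Between treated groups the count was 0, as it was over all genes. Late single-dose against early single-dose tumors gave 2 with DESeq2 on either size factors, where its own called 57 of 729 genes and the housekeeping ones 24. Repeat-dose against late single-dose tumors gave 0 to 1 on leaving out tumors. The 1 was without late single-dose replicate C, where 100 of 729 genes were called. Repeat-dose against early single-dose tumors gave 2 with TMM, total-count scaling or DESeq2 on its own size factors, 4 with DESeq2 on housekeeping size factors, and 3 with a filter in all samples or with only the groups compared. In that order these called 19, 28, 57, 79, 18 (of 562) and 83 of all genes. Leaving out tumors gave 0 to 3 (3 without late single-dose replicate C or repeat-dose replicate B, with 49 and 14 genes called). The difference of the dose effects stayed at 0 throughout.

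Of the ratios, Il1b over Il1rn had an exact p of 0.0465 with a pseudocount of 10 and 0.0223 to 0.381 on leaving out tumors. Il1a over Il1r2 had 0.00903 to 0.0951. Il1a over Il1rn and Il1b over Il1r2 passed under each alternative. Il1r2 in repeat-dose tumors against saline reversed with total-count scaling (-0.25) and positive-control scaling (-0.11). Over 56 member results and 1325 values from 12 alternatives and 12 left-out tumors, the sign changed in 57 values, in 55 of which neither value was called. Results of the joint test are among those counted but carry no sign, so they could not add to the 57. Causes were not tested.

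The replicate letters did not pair the tumors: over 18 same-letter pairs r ran from -0.65 to 0.596, 8 of them over 0.1, and 2 of 12 tumors correlated best with their own letter. Apart from the count of 2 above, the replicate block gave counts within 1.5 times those without it.

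Limits are the 3 tumors per group and the absence of day-8 saline tumors here. So are the lower housekeeping counts of treated tumors, with smaller changes under total-count scaling. Another is the small distance from background of Il1a, of Il1r1 in repeat-dose replicate C and of Il1r2 in repeat-dose replicate B.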
